A study of Mus musculus with 2 samples.

Results

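Neutrophils are made in the bone marrow from myeloblasts through promyelocytes, myelocytes, metamyelocytes and band cells. Each stage packs its own granules. Primary (azurophil) granules, which hold myeloperoxidase and serine proteases, are filled first, secondary (specific) granules next, and tertiary (gelatinase) granules last. Ngp (neutrophilic granule protein), Camp (the cathelicidin precursor) and Ltf (lactoferrin) encode secondary granule contents, and their transcripts are known as marks of myelocytes and metamyelocytes that are largely gone from the mature neutrophils of blood. The barcodes described here are those of mouse aorta that carried neutrophil transcripts together with many UMIs (unique molecular identifiers, each counting 1 captured transcript) of these secondary granule genes.

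A barcode was a member when it had at least 500 detected genes, at most 10% mitochondrial UMIs, at least 5 UMIs each of S100a8 and S100a9 (the calprotectin subunits, abundant in all neutrophils), at least 20 UMIs summed over Ngp, Camp and Ltf, and at most 1 UMI of C1qa, a macrophage complement gene. The rule found 68 members among 19897 barcodes that passed the 500-gene and 10% filters. The comparison barcodes passed the same filters and the same S100a8 and S100a9 minimums, with at least 1 UMI of Csf3r (the G-CSF receptor) and fewer than 20 UMIs of Ngp, Camp and Ltf together. The members were thus chosen by measured levels. Every ratio of members to comparison barcodes below comes from the contrast that chose them, and is a description with no test.

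The tissue was whole aorta from arch to pelvic bifurcation of male C57BL6 mice, digested, cleared of red cells and profiled by droplet single-cell RNA-seq (10x Genomics 3′ v3), with 3 mice per condition. The Cept1 library is Cept1fl/fl Cre+, in which tamoxifen-induced VE-cadherin-Cre-ERT2, a Cre driven by an endothelial promoter, switches on Cept1 overexpression. Cept1 encodes choline/ethanolamine phosphotransferase 1, which completes phosphatidylcholine and phosphatidylethanolamine synthesis. The control library is Cept1fl/fl Cre-, and its mice carried the same floxed allele and no Cre. The treatment protocol, written identically for both libraries, gives 5 daily intraperitoneal injections of 1 mg tamoxifen and 5 days of recovery. It states an age of at least 8 weeks, whereas the age label reads 6 to 8 weeks. Each group is 1 library, and the labels do not say how the mice were pooled or which cells were sorted. No difference between the libraries could therefore be tested, and the 95% intervals below cover counting error only, since barcodes of 1 library are not replicates.

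The Cept1 library held 95735360 UMIs over 17728 barcodes, of which 11168 passed, and the control library 88220524 UMIs over 14349 barcodes, of which 8729 passed. Passing barcodes had a median of 6438.5 and 6735 UMIs, in the same order. The libraries shared 74 barcode sequences, and no member was among them. Among endothelial barcodes, Cept1 itself stood at 107 CPM (counts-per-million of the group's UMIs, here 1599 UMIs) in the Cept1 library, against 70.8 CPM (625 UMIs) in the control library. The members of the Cept1 library held 7 Cept1 UMIs (83.1 CPM), and those of the control library 39 (70.7 CPM).

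The members were 7 of the 11168 passing barcodes of the Cept1 library (0.0627%, exact binomial interval 0.0252 to 0.129%) and 61 of the 8729 of the control library (0.699%, 0.535 to 0.897%). As a share of S100a8- and S100a9-positive barcodes they were 4.67% of 150 in the Cept1 library (interval 1.90 to 9.38%) and 38.1% of 160 in the control library (30.6 to 46.1%). The comparison barcodes numbered 142 for the Cept1 library and 63 for the control library. Only 1 S100-positive barcode of the Cept1 library and 36 of the control library belonged to neither group. With 1 library per group, a difference in genotype and a difference in dissection, blood content or sorting between the libraries cannot be told apart.

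**Figure D1:**
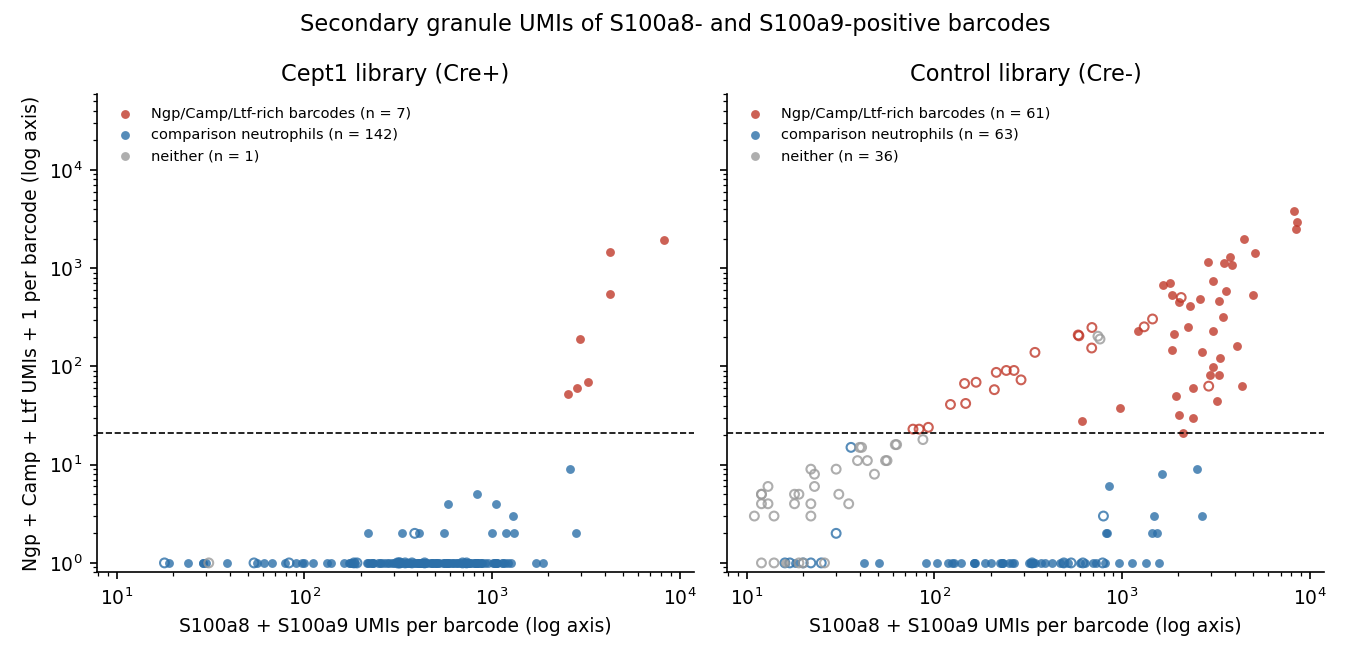
Each point is 1 barcode with at least 5 UMIs each of S100a8 and S100a9 in the Cept1 library (left) or the control library (right), placed by its S100a8 plus S100a9 UMIs (horizontal, log axis) and its Ngp plus Camp plus Ltf UMIs plus 1 (vertical, log axis). The dashed line is the minimum of 20 UMIs and open points hold 20 or more fibroblast marker UMIs; the line has 7 members above it in the Cept1 library, against 61 in the control library, of which 21 are open points.

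Markers of aortic wall fibroblasts split the control members. Over 6 fibroblast genes (Col1a1, Col1a2, Col3a1, Dcn, Lum and Pdgfra), 21 of the 61 control members (34.4%) held 20 or more UMIs, with a median of 155 and up to 715, whereas none of the 7 Cept1 members held more than 10. Among the comparison barcodes, 14 of 142 in the Cept1 library and 13 of 63 in the control library reached 20, as did 35 of the 36 control barcodes in neither group. The 21 fibroblast-rich members were shallower, with a median of 4087 UMIs against 9773 in the other 40. S100a8 and S100a9 made up a median of 7.62% of their UMIs against 28.6%, and mitochondrial transcripts 5.98% against 1.19%.

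Ngp, Camp and Ltf were high relative to S100a8 and S100a9 in the fibroblast-rich members, with a median of 28.6 UMIs per 100 S100a8 and S100a9 UMIs, against 11.2 in the other 40. The ranges overlapped, with 2.14 to 45.5 in the fibroblast-rich members and 0.941 to 46.8 in the other 40. The 35 fibroblast-rich barcodes in neither group had a median of 21.7 and a range of 0 to 38.5, and the 13 fibroblast-rich comparison barcodes a median of 0. Both parts of this ratio are choosing genes. The minimum of 20 UMIs raises it in members with few S100a8 and S100a9 UMIs, whose median was 266 in the fibroblast-rich members and 2993 in the other 40. The comparison rule of fewer than 20 UMIs limits it in the comparison barcodes. The difference is thus partly built in. The gelatinase granule gene Retnlg (resistin-like gamma) had a median of 3 UMIs against 144.5, and Csf3r was at 0 in 15 of the 21 and in 0 of the 40. All values below are given for the 61 members of the rule, and where it matters also for the 40 members against the 50 control comparison barcodes that held fewer than 20 fibroblast UMIs. Whether the 21 are droplets that hold more than 1 cell, fibroblasts with free neutrophil RNA, or damaged cells was not tested.

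Over fibroblast, macrophage, T, B, endothelial and smooth muscle markers together, 2 of 7 Cept1 members and 14 of 61 control members held fewer than 3 UMIs, against 29 of 142 and 19 of 63 comparison barcodes in the same order. Endothelial markers never passed 1 UMI in members, macrophage markers never passed 4 and B cell markers reached 22. In the control comparison, macrophage markers reached 295. C1qa is 1 of these macrophage markers, and the rule capped it at 1 UMI in members but not in comparison barcodes, so this difference is partly built in. Erythroid UMIs reached 211 in 1 control member, and 4983 in 1 control comparison barcode. As a measure of free RNA, barcodes with at least 5 UMIs each of Dcn and Col1a1 that were not S100a8- and S100a9-positive were used: 0.0977% of 5118 in the Cept1 library and 1.25% of 4173 in the control library carried an Ngp UMI, at median depths of 5794 and 6131 UMIs, and 0 of either reached the minimum of 20. Their highest Ngp, Camp and Ltf sums were 1 UMI in the Cept1 library, against 7 UMIs in the control library. This choice leaves out fibroblast barcodes with at least 5 UMIs each of S100a8 and S100a9. Among those left out are the 35 fibroblast-rich control barcodes in neither group, whose sums reached 202 UMIs. The values are thus limited by the choice, and set no upper limit on free RNA.

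The given label, immature granule-rich neutrophil precursors, rests on 6 markers: Ngp, Camp and Ltf, which the rule used, and Elane (neutrophil elastase), Mpo (myeloperoxidase) and Fcnb (ficolin B), which it did not. Mpo was at 0 in all 68 members, and so was Ctsg (cathepsin G). Elane had 4 UMIs, all in 1 control member, and Prtn3 (proteinase 3) had 2 UMIs in 1 Cept1 member and 10 in 1 control member. Fcnb had 2 UMIs in each of 2 Cept1 members, and was found in 8 control members, at 57, 56, 12, 8 and 6 UMIs in the highest 5. The primary granule markers of the label were thus at 0 in nearly all members, and the members are called Ngp/Camp/Ltf-rich barcodes here.

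The primary granule transcripts of the control library sat outside the rich barcodes. A single comparison barcode of 34763 UMIs held 611 Elane, 349 Prtn3, 323 Mpo and 127 Ctsg UMIs with 56 of Fcnb, 8 of Camp and 0 of Ngp. It passed the comparison rule, so it enters every control comparison value below, and by itself sets the ratios of these genes.

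The promoter windows of the 3 genes that define the barcodes, and of Lcn2 (lipocalin 2, a siderophore-binding protein, with the most UMIs in control rich barcodes among the secondary granule genes that the rule did not use), are shown so that their sequences can be compared. C/EBP epsilon and PU.1 are known regulators of granule genes in granulopoiesis. The windows run from 250 bases before to 50 after the RefSeq start (GRCm38.p6, 5′ to 3′ on the strand of the gene), and capitals mark matches to the relaxed C/EBP motif TTGCNNAA on either strand.
Ngp, chr9:110419558-110419857 (+ strand): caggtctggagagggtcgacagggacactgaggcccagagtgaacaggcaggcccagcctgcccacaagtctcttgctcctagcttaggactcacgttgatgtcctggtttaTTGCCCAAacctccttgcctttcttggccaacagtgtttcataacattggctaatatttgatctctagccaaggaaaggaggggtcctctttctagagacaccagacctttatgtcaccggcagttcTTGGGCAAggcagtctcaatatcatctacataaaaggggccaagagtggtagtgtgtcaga
Camp, chr9:109849407-109849706 (minus strand): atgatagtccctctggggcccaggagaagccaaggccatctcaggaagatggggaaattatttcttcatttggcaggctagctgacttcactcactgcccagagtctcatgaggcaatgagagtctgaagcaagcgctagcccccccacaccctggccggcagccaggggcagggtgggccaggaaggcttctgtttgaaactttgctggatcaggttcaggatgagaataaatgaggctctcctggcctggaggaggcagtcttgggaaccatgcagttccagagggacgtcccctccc
Ltf, chr9:111019042-111019341 (+ strand): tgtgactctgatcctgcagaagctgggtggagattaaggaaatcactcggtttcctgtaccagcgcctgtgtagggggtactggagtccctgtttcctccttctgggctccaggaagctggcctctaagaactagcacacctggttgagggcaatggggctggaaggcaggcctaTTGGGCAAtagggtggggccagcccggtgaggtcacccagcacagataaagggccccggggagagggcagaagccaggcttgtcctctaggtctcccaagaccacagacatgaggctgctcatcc
Lcn2, chr2:32387690-32387989 (minus strand): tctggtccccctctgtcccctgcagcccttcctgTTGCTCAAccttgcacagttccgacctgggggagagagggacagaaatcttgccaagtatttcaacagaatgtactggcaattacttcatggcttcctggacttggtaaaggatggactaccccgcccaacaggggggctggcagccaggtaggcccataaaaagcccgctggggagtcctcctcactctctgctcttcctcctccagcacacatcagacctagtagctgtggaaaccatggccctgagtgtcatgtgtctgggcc
The Ngp window held 2 matches, those of Ltf and Lcn2 held 1 each and that of Camp held 0, whereas 10.8% of all 32851 RefSeq windows of this length held at least 1. Of the 17 secondary granule genes with a window, 6 held TTGCNNAA and 11 held the PU.1 core GAGGAA, which 28.3% of all windows carry. Of the 10 primary granule genes with a window, 1 held TTGCNNAA and 8 held GAGGAA. The strict C/EBP palindrome TTGCGCAA, a special case of TTGCNNAA, was in none of these windows, and in 0.183% of all windows. A match of letters is a description and not a binding site.

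The choosing genes were as follows. Ngp (chromosome 9, 110419747 to 110423012, GRCm38) had 26397 CPM in the rich and 32.1 in the comparison barcodes of the Cept1 library, and 23951 and 70.3 CPM in those of the control library. Camp (chromosome 9, 109847379 to 109849617) had 18346 and 2.68 CPM in the Cept1 library, and 20042 and 31.8 CPM in the control library. Ltf (chromosome 9, 111019271 to 111042767) had 6282 and 4.02 CPM in the Cept1 library, and 6978 and 0 CPM in the control library. These 3 genes made up 5.10% of the UMIs of the rich barcodes in each library. S100a8 and S100a9 together made up 33.7% of the UMIs of rich and 10.5% of comparison barcodes in the Cept1 library, and 25.7% and 7.66% in the control library.

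Over the control library, 5504 genes had at least 20 UMIs in both groups together and count as measured. Of these, 1643 (29.9%) were higher at all in the rich barcodes, 416 (7.56%) were 2-fold or more higher and 1589 (28.9%) 2-fold or more lower. The log2 ratio of the median gene was -0.47, and the 5 choosing genes S100a8, S100a9, Ngp, Camp and Ltf made up 30.8% of the UMIs of rich and 7.67% of those of comparison barcodes. Measured from that median gene, 829 genes (15.1%) were 2-fold or more higher and 923 (16.8%) lower. List counts below are on the CPM scale, and should be read against this shift. Without the fibroblast-rich barcodes, 391 (10.0%) of 3897 genes were higher and 1054 (27.0%) lower, with a median gene at -0.35.

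Secondary granule genes were the list with the highest median in the control library. Of the 19 listed, 3 chose the barcodes. In the Cept1 library 33.8% of 4623 measured genes were higher in the rich barcodes, 7.79% were 2-fold or more higher and 33% 2-fold or more lower. Of the list, 14 were measured there and all 14 were higher, with a median log2 ratio of 2.66. In the control library all 16 were measured and higher, 15 of them 2-fold or more, with a median of 2.78 (2.54 for the 40 against the 50).

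Lcn2 (chromosome 2, 32384633 to 32388252) had 14594 CPM in the rich and 1164 CPM in the comparison barcodes of the Cept1 library. For the control library it had 11858 CPM and 721 CPM, a 16.4-fold ratio (log2 4.04, interval 3.88 to 4.21). Per barcode, the lowest, median and highest were 1320.4, 9171 and 25306 CPM in control rich barcodes and 0, 249.5 and 7095 CPM in control comparison barcodes, so the ranges overlapped while the medians lay far apart. All 61 rich barcodes of the control library carried an Lcn2 UMI, against 40 of 63 comparison barcodes.

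Chil3 (chromosome 3, 106147554 to 106167564), a chitinase-like protein made in marrow neutrophils, had 2422 CPM in rich and 1.34 CPM in comparison barcodes of the Cept1 library, and 3205 and 34.0 CPM in those of the control library. Its log2 ratio in the control library was 6.56 (interval 5.83 to 7.40) and 6.31 for the 40 against the 50. It was uneven among the rich barcodes, with a lowest, median and highest of 0, 1276 and 12226 CPM in the control library, against 0, 0 and 403 CPM in its comparison. Chil3 has a near-identical neighbour in Chil4, and the handling of reads shared by such pairs was not stated.

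Cd177, a neutrophil surface protein that binds proteinase 3 in humans, had 1496 CPM in rich and 30.8 CPM in comparison barcodes of the Cept1 library, and 974 and 29.5 CPM in those of the control library (log2 5.05, interval 4.26 to 5.96). It was present in 54 of 61 rich and 9 of 63 comparison barcodes of the control library. In the Cept1 library the lowest of the 7 rich barcodes was at 1024 CPM and the highest of the 142 comparison barcodes at 563 CPM. In the control library the groups overlapped. How many other genes separated the groups of the Cept1 library was not counted. Itgb2l, an integrin beta-2-like chain, had a log2 ratio of 5.63 in the Cept1 library. In the control library it had 198 UMIs in rich barcodes and 1 UMI in comparison barcodes (log2 7.31, interval 4.81 to 12.62).

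Mmp8 (neutrophil collagenase) had 1912 and 281 CPM in rich and comparison barcodes of the Cept1 library, and 2625 and 386 CPM in those of the control library, log2 2.77 and 2.52 without fibroblast-rich barcodes. Cybb (gp91phox, the membrane subunit of the NADPH oxidase, stored in secondary granules) had 1472 and 171 CPM in the Cept1 library and 1569 and 138 CPM in the control library, log2 3.50 (interval 3.13 to 3.90). Further members of the list in the control library were Ifitm6 (log2 3.35), the adhesion receptor Ceacam1 (3.00), Wfdc21 (2.59), the leukotriene B4 receptor Ltb4r1 (2.23), Anxa1 (annexin A1, 2.21), Lyz2 (lysozyme, 1.94) and Pglyrp1 (a peptidoglycan-binding protein, 1.56). Hp (haptoglobin) was the only measured secondary granule gene under 2-fold, at 0.78 in the Cept1 library and at 0.68 for control. Olfm4 (olfactomedin 4), known to mark a subset of neutrophils, had 26 UMIs in 2 control rich barcodes and 0 in the comparison. Fcnb was at 1.02, with all 56 of its comparison UMIs in 1 barcode. When the top barcode of each group was left out the comparison held 0, and the log2 ratio was at least 4.48, a bound set at 3 counts.

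**Figure D2:**
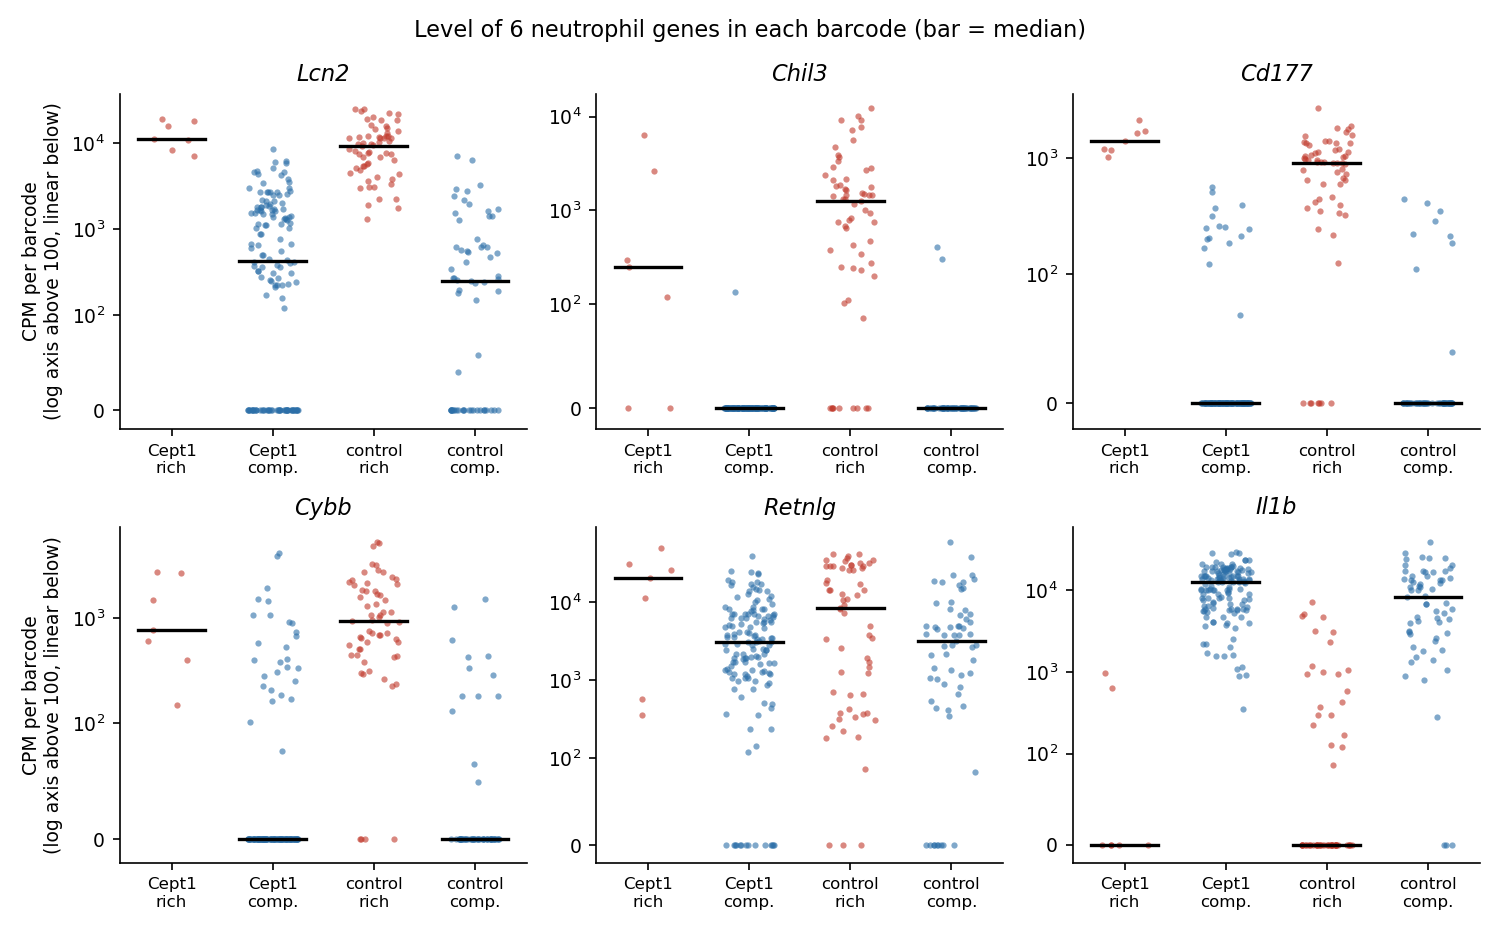
Level of 6 genes in each barcode, in CPM on an axis that is linear below 100 and logarithmic above it, for the rich and comparison barcodes of the Cept1 library and then those of the control library; bars are medians. Lcn2, Chil3, Cd177 and Cybb had higher medians in rich barcodes of both libraries, Retnlg overlapped widely, and Il1b had a median of 0 in rich barcodes of both libraries.

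Tertiary granule and secretory vesicle genes were mixed. Of 14 listed, 13 were measured in the control library, 9 higher (5 of them 2-fold or more) and 4 lower, with a median of 0.56 in the Cept1 library, against 0.95 in the control library (0.77 without fibroblast-rich barcodes). Retnlg had 14511 and 5162 CPM in rich and comparison barcodes of the Cept1 library, and 13673 and 6233 CPM in those of the control library (log2 1.13). Mmp9 (gelatinase B) was at 1.54, Mmp25 (leukolysin) at 2.48, the formyl peptide receptor Fpr2 at 2.17 and Itgam (CD11b) at 1.51 in the control library. Slc11a1, a phagosomal metal transporter, was lower at -1.37. Cd14, the lipopolysaccharide co-receptor, was at -0.40, and at 0.062 when measured from the median gene.

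The NADPH oxidase had 5 of 6 subunits higher, 2 of them 2-fold or more, with a median of 0.92 in the Cept1 library, against 0.89 in the control library (0.70 without fibroblast-rich barcodes). The counts are for the control library. Beside Cybb, the cytosolic organiser Ncf1 was at 1.33, the membrane partner Cyba at 0.91 and the GTPase Rac2 at 0.88.

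Of 12 primary granule genes, 10 were measured in the control library and 9 were lower, with a median of -2.64, but -1.39 without the single comparison barcode described above, and 2.11 when barcodes with 3 or more UMIs of other cell types, that one included, were left out. Mpo, Elane, Prtn3, Ctsg and Ms4a3 had all their comparison UMIs in that barcode. Without it, Prtn3 and Ms4a3, a membrane protein of granulocyte-monocyte progenitors, had 10 and 11 UMIs in rich barcodes and 0 in the comparison. Their log2 ratios were then at least 1.30 and at least 1.43, bounds set at 3 counts, on UMIs that lay mainly in 1 rich barcode each. Srgn (serglycin, the proteoglycan that packs granule proteins), measured in nearly all barcodes, had a log2 ratio of -2.39 in the Cept1 library. For the control library it had 1654 CPM in rich and 4309 CPM in comparison barcodes (log2 -1.38). Serpinb1a, the cytosolic inhibitor of elastase and proteinase 3, was the 1 gene of the list that was higher in the control library, at 1.92 on the log2 scale. It stood at 6.06 in the Cept1 library, where 5 genes of the list were measured, 2 higher and 3 lower (median -0.61).

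Inflammatory and cytokine genes were low. In the Cept1 library 13 of 14 measured were lower, with a median of -3.24. In the control library 13 of 14 were lower too, 10 of them 2-fold or more, with a median of -2.03 (-2.48 without fibroblast-rich barcodes). Il1b (interleukin 1 beta) had 154 CPM in rich and 10049 CPM in comparison barcodes of the Cept1 library, and 577 and 6818 CPM in those of the control library (log2 -3.56, interval -3.73 to -3.40). Its lowest, median and highest barcodes were 0, 0 and 7113 CPM in the rich and 0, 8235 and 38585 CPM in the comparison group of the control library. It was detected in 22 of 61 rich and 60 of 63 comparison barcodes.

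The chemokine Ccl3 was at 0.30 in the Cept1 library, with 33 UMIs in 1 rich barcode, and at -4.16 in the control library, where Ccl4 was at -6.61. Ccrl2, an atypical chemokine receptor induced on activation, was at -5.45 in Cept1 and -3.24 in control barcodes.

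Immediate early genes, which dissociation as well as activation can induce, were lower for 12 of 12 in the Cept1 library (median -2.65). For the control library 11 of 12 were lower, 10 of them 2-fold or more (median -1.52, or -2.06 without fibroblast-rich barcodes). Atf3, a stress-induced transcription factor, was at -3.84 in the control library and -5.21 for the 40 against the 50. The MAP kinase phosphatase Dusp1 was at -2.87 and -3.65 on the same pair of scales, and the cytokine signalling inhibitor Socs3 at -2.10 in the control library. Both libraries went through the same stated digestion, and the part of handling in these values was not tested.

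Of the interferon list, 6 of 12 measured genes were lower in the Cept1 library (median 0.17) and 10 of 13 in the control library (median -1.54), a difference that was not tested. The control median was 0.16 when barcodes with 3 or more UMIs of other cell types were left out. The low control ratios of Ifit1 and Ifit3 rest on 1 comparison barcode. Ifitm1, a membrane protein that blocks viral entry, rested on many barcodes: it had 23.7 and 2845 CPM in rich and comparison barcodes of the Cept1 library, and 16.3 and 855 CPM in those of the control library (log2 -5.71). It was present in 7 of 61 rich and 37 of 63 comparison barcodes of the control library.

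Among genes of the mature neutrophil surface, 17 of 20 were lower in each library, with medians of -1.09 in the Cept1 library, against -0.57 in the control library (-0.94 without fibroblast-rich barcodes). The medians of all measured genes were -0.40 and -0.47, in the same order. In the control library the list was thus near all genes: 5 of 20 (25%) were 2-fold or more lower, against 28.9% of all, and 9 lay above the median gene and 11 below. The lowest in the control library were Stfa2l1 (a stefin, -2.22), Cd300ld (-2.16), the decoy interleukin 1 receptor Il1r2 (-1.58) and the C-type lectin Clec4d (-1.51). Genes of marrow retention, egress and adhesion had 3 higher and 8 lower of 11 (median -0.93) in the control library, with 4 above and 7 below the median gene. The integrin chain Itga4 stood at -3.21, the marrow retention receptor Cxcr4 at -1.82 and the hyaluronan receptor Cd44 at -1.38. Cd24a, a surface antigen of maturing granulocytes, was higher, at 1.31 in the control library, and so was Ly6g, the neutrophil surface antigen, at 2.83 in the Cept1 library, against 3.57 in the control library. Ly6g belongs to a family of similar genes, and the handling of reads shared among them was not stated.

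Of 13 transcription factors of granulopoiesis, 12 were lower (median -0.92), 8 of them below the median gene, and Cebpe was the 1 that was higher. Cebpe, which drives the promyelocyte-to-myelocyte step and secondary granule genes, had 297 CPM in rich and 13.4 CPM in comparison barcodes of the Cept1 library. In the control library it had 167 and 24.9 CPM, log2 2.74 (interval 1.84 to 3.79), with UMIs in 31 of 61 rich and 3 of 63 comparison barcodes. Of the 11 comparison UMIs, 9 came from the barcode rich in primary granule transcripts, and the log2 ratio was 4.92 without the top barcode of each group. Cebpb, the C/EBP factor of emergency granulopoiesis, was at -1.43 and Junb at -1.73. Myb, a progenitor factor, had 4 UMIs in the rich and 18 UMIs in the comparison barcodes.

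Protein synthesis and folding genes were lower in 12 of 12, 11 of them 2-fold or more (median -1.39). In the Cept1 library 10 of 11 were lower (median -1.11). Without fibroblast-rich barcodes the control median was -1.74. It was 0.57 when barcodes with 3 or more UMIs of other cell types were left out, which left 14 rich and 19 comparison barcodes and 1444 measured genes, and the part of those barcodes was not tested. Oxidative phosphorylation genes had 3 higher and 10 lower of 13 (median -0.34), glycolysis and hypoxia genes 7 higher and 5 lower of 12 (median 0.24), and phospholipid synthesis genes 2 higher and 6 lower of 8 (median -0.47). The median of all measured genes was -0.47 too. Above it lay 8 of the 13 oxidative phosphorylation genes, 9 of the 12 glycolysis and hypoxia genes and 4 of the 8 phospholipid synthesis genes. The glycolytic genes Ldha and Pgk1 were at 1.26 and 1.09, the oxygen-sensing factor Hif1a at -1.47, and Agpat2, which makes phosphatidic acid, at 1.24.

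**Figure D3:**
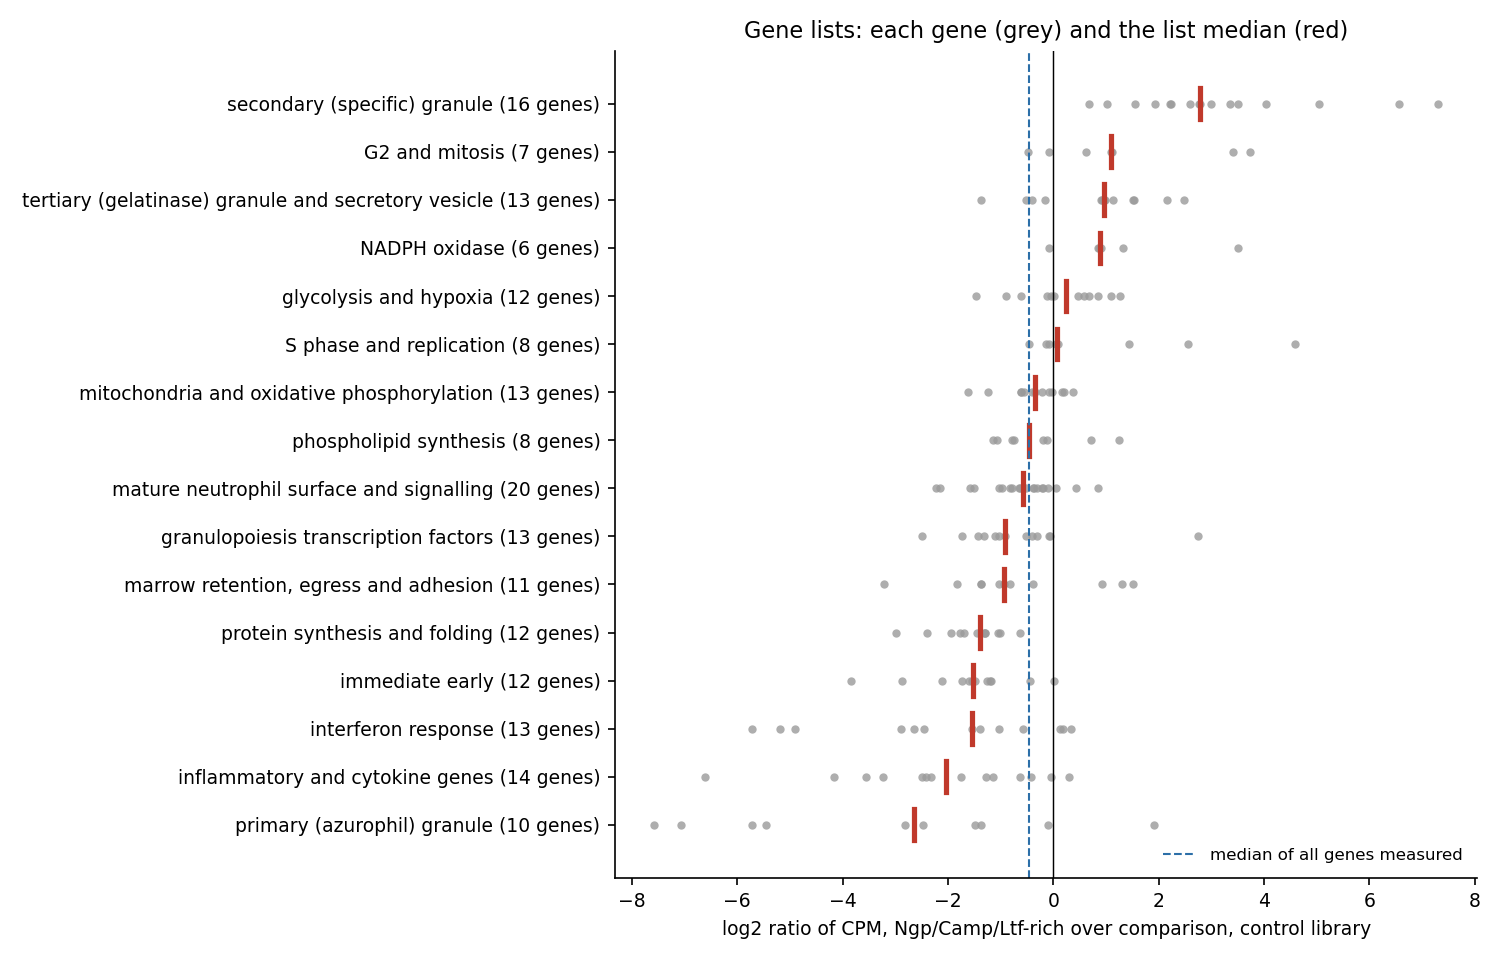
Log2 ratio of CPM in rich over comparison barcodes of the control library for each measured gene (grey) of 16 lists and the list medians (red), without the genes that chose the barcodes; the dashed line is the median of all measured genes at -0.47. Secondary granule genes had a median of 2.78, and inflammatory genes one of -2.03.

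Beyond the lists, the highest ratios in the control library with 50 or more UMIs included Adpgk, an ADP-dependent glucokinase (log2 4.97 in the Cept1 library, against 4.84 in the control library), Abca13, a lipid transporter (6.38 and 4.36 in the same order), and Zmpste24, the prelamin A protease (4.15 and 3.83). Adpgk was present in 52 of 61 rich and 8 of 63 comparison barcodes of the control library. Csmd1 and Cstdc5 had nearly all their rich-barcode UMIs in 1 barcode each, and Comp, a cartilage matrix gene, was seen in 10 rich barcodes, all fibroblast-rich. At the low end stood Ccbe1, Myh11, Fbxl7, Mecom and Tm4sf1, each with 5 or fewer UMIs in the rich barcodes. In the 50 comparison barcodes with few fibroblast UMIs, Ccbe1, Fbxl7 and Mecom had 0 UMIs, Tm4sf1 had 3 and Myh11 had 18. The low ratios of all but Myh11 thus rest on fibroblast-rich comparison barcodes. Most of the Ccl5 UMIs of the comparison were in 1 barcode. Adpgk, Itgb2l, Anxa1, Il1b, Prtn3 and Mpo overlap a gene on the other strand, and whether counting used strand was not stated.

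The rich barcodes were not uniform. In the 40 control members with few fibroblast UMIs, the sum of Ngp, Camp and Ltf spanned 20 to 3857 UMIs, and other genes are given below as CPM over the UMIs of all genes but S100a8, S100a9, Ngp, Camp and Ltf. The ranges are 20 to under 50 UMIs of the 3 genes (7 barcodes), 50 to under 200 (9), 200 to under 1000 (15) and 1000 or more (9, a break chosen after the values were seen), and the comparison is the 50 barcodes with few fibroblast UMIs. They are ranges of a score and not cell types. Rank correlations below used the sum of Ngp, Camp and Ltf divided by the UMIs of those other genes (the divided sum). The gene levels have the same denominator, so part of a correlation can come from it. Depth moved with the score, with median UMIs of 4460 in the comparison and 7930, 9624, 9467 and 15572 from the lowest to the highest range.

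The secondary granule genes Chil3, Cybb and Lcn2, and Cebpe, were higher along the score. Cd177 and Itgb2l of the same list had rank correlations of 0.28 and 0.22 with the divided sum over the 40 barcodes. Chil3 stood at 51.8 in the comparison barcodes, 182 at 20 to under 50, 469.7 at 50 to under 200, 2403 at 200 to under 1000 and 13993 at 1000 or more. Cebpe stood at 37.0 in the comparison barcodes, 30.4 at 20 to under 50, 50.3 at 50 to under 200, 215 at 200 to under 1000 and 542 at 1000 or more. Cybb stood at 199.7 in the comparison barcodes, 1064 at 20 to under 50, 1141 at 50 to under 200, 2576 at 200 to under 1000 and 4286 at 1000 or more. Lcn2 was high already in the lowest range: 1102 in the comparison barcodes, 10732 at 20 to under 50, 13252 at 50 to under 200, 19517 at 200 to under 1000 and 29828 at 1000 or more. Spearman's rank correlation with the divided sum over the 40 barcodes was 0.86 for Chil3, 0.73 for Cebpe, 0.70 for Lcn2 and 0.67 for Cybb. These are given as a description, since the barcodes share a library and a depth gradient (rho of total UMIs with the divided sum 0.55).

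Fcnb was highest at the top of the score, at 207 in the comparison barcodes, 0 at 20 to under 50, 0 at 50 to under 200, 10.2 at 200 to under 1000 and 1442 at 1000 or more, with UMIs in 7 of 9 barcodes there. Of the 141 Fcnb UMIs of the top range, 57 and 56 were in the 2 cycling control members described below, of 34190 and 26638 UMIs. The comparison value of Fcnb comes from the 1 barcode rich in primary granule transcripts. Lyz2 and Anxa1 reached 22524 and 6475 at the top, against 3244 and 647 in the comparison.

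The gelatinase granule genes Retnlg and Mmp9, the receptor gene Cxcr2 and the secondary granule gene Mmp8 were lower in the top range than in the lower 3. Over the lower 3 ranges Mmp8 was nearly level and Mmp9 was not lower along the score. The other genes followed from the gelatinase granule and secretory vesicle list differed among themselves, with rank correlations over the 40 barcodes of -0.42 for Slpi, -0.19 for Itgam, -0.09 for Padi4, 0.0049 for Mcemp1 and 0.36 for Fpr2. Retnlg stood at 9128 in the comparison barcodes, 42869 at 20 to under 50, 48782 at 50 to under 200, 24844 at 200 to under 1000 and 2087 at 1000 or more, so the top range lay below the comparison while the lower 3 lay above it. Mmp8 stood at 544 in the comparison barcodes, 6233 at 20 to under 50, 6022 at 50 to under 200, 6052 at 200 to under 1000 and 921 at 1000 or more, and 5 of the 9 top barcodes had no Mmp8 UMI. Mmp9 stood at 884 in the comparison barcodes, 3466 at 20 to under 50, 3758 at 50 to under 200, 4478 at 200 to under 1000 and 1115 at 1000 or more. The chemokine receptor Cxcr2, which draws mature neutrophils out of the marrow, stood at 795 in the comparison barcodes, 1186 at 20 to under 50, 1258 at 50 to under 200, 889 at 200 to under 1000 and 102 at 1000 or more. The rank correlations over the 40 were -0.83 for Retnlg, -0.62 for Cxcr2, -0.53 for Mmp8 and -0.41 for Mmp9.

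Over all 61 members the same correlations were -0.39 for Retnlg, -0.24 for Cxcr2, -0.18 for Mmp8, -0.04 for Mmp9 and 0.82 for Chil3. The negative ones were closer to 0 with the fibroblast-rich barcodes included, and that of Chil3 was nearly the same. Cytokine transcripts were lowest at the top: Il1b stood at 10352 in the comparison barcodes, 1642 at 20 to under 50, 1208 at 50 to under 200, 1677 at 200 to under 1000 and 20.5 at 1000 or more, and Cxcl2, a neutrophil-recruiting chemokine, at 6014 in the comparison barcodes, 5108 at 20 to under 50, 2214 at 50 to under 200, 1319 at 200 to under 1000 and 10.2 at 1000 or more. All secondary granule genes of the list summed to 10078 CPM in the comparison and 104827 in the top range, and tertiary granule genes to 16066 and 8122, with 63041 at 50 to under 200.

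**Figure D4:**
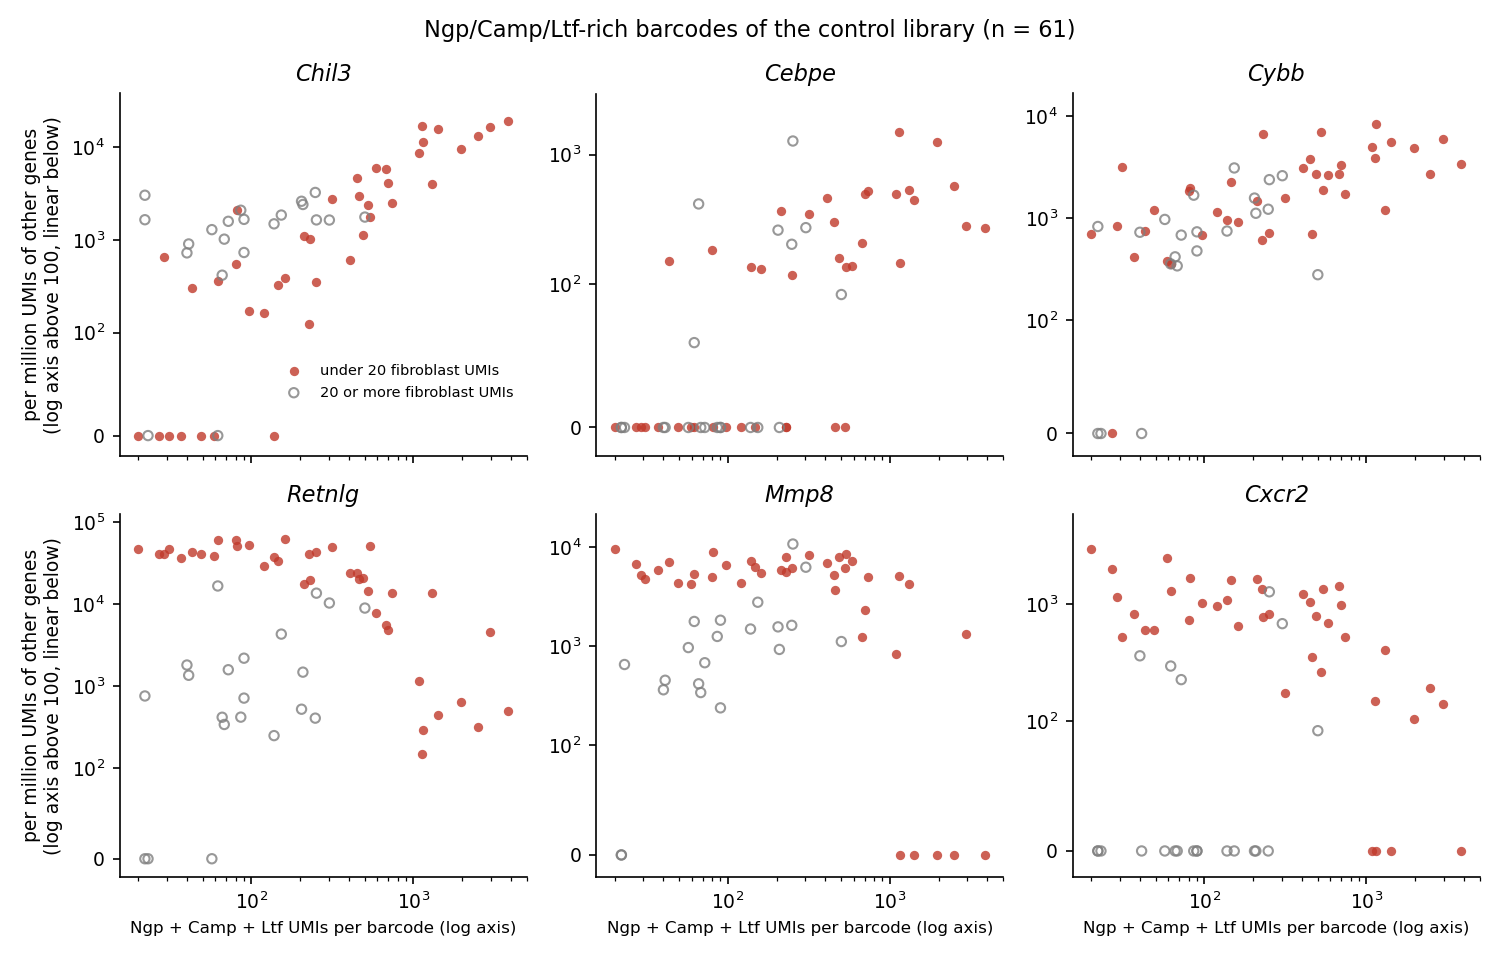
Levels of 6 genes as CPM of the UMIs of other genes (vertical, linear below 100 and logarithmic above it) against Ngp plus Camp plus Ltf UMIs (horizontal, log axis) in the 61 rich barcodes of the control library; filled points held fewer than 20 fibroblast UMIs (n = 40) and open points 20 or more (n = 21). In the filled points Chil3, Cebpe and Cybb are higher at high sums, while Retnlg, Mmp8 and Cxcr2 are lower there.

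The 7 Cept1 members held 1925, 1451, 551, 191, 68, 59 and 52 UMIs of Ngp, Camp and Ltf. In that order Chil3 had 160, 37, 3, 3, 0, 1 and 0 UMIs, Cebpe 22, 3, 0, 0, 0, 0 and 0, and Retnlg 9, 8, 135, 493, 203, 167 and 207. The 2 barcodes above 1000 thus had high Chil3 and low Retnlg, and the other 5 had the reverse. Mmp8 had 0 and 5 UMIs in the first 2 and 16 to 52 in the other 5. None of the 7 had more than 8 Il1b UMIs.

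Cycling transcripts were found in 3 rich barcodes. Over 18 core cell cycle genes, 1 of 7 Cept1 members had 3 or more UMIs (14.3%, 170 UMIs), against 0 of 142 Cept1 comparison barcodes, which allows a share of up to 2.11% (3 counts of the total, with an exact binomial upper limit of 2.56%). These comparison barcodes were shallower, with a median of 4407 UMIs against 10078 in the members. For the control library 2 of 61 members (3.28%, with 58 and 209 UMIs) and 1 of 63 comparison barcodes (1.59%) had them, the last being the primary granule barcode. These 3 members were deep, with 25325 UMIs in the Cept1 and 26638 and 34190 UMIs in the control library, and held 1925, 2490 and 3857 Ngp, Camp and Ltf UMIs, in the same order. Mki67, the proliferation antigen, had 14 UMIs in the Cept1 member and 6 and 33 in the control members, and Top2a (topoisomerase II alpha) had 29, against 5 and 45. The Cept1 member was the 1 rich barcode with a doublet score above 0.25, at 0.313.

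With the full S phase and G2/M lists of 47 genes, 7 of 7 Cept1 members and 51 of 61 control members (83.6%) had 3 or more UMIs, as did 71.8% of Cept1 and 76.2% of control comparison barcodes. Without the widely expressed Hmgb2, Stmn1 and Tubb5 the shares were 14.3% in Cept1 members and 12.7% in their comparison, and 21.3% in control members and 20.6% in theirs. Thinned to 2000 UMIs per barcode, the shares were 28.6% of 7 in Cept1 members and 34.5% of 139 in their comparison, and 46.6% of 58 in control members and 44.1% of 59 in theirs. In the control library the G2 and mitosis list had a median of 1.09, and 0.06 without barcodes of 5 or more core cycle UMIs. The S phase list had 0.07 and -0.59 on the same pair of settings. Top2a (log2 3.74), Mki67 (3.41), Rrm2 (2.55) and Pclaf (4.58) had nearly all their UMIs in the 2 cycling members.

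Both libraries can be set side by side, since each contrast used only its own barcodes. Of 4309 genes measured in both, 345 (8.01%) were 2-fold or more higher in rich barcodes of the Cept1 library and 268 in those of the control library. The overlap of 128 genes was 37.1% of the Cept1 list and 47.8% of the control list. Genes 2-fold or more lower numbered 1440 (33.4%) for Cept1 and 1227 for control, and the 692 in common were 48.1% of the Cept1 list and 56.4% of the control list. The same rule chose the barcodes of both libraries, so part of the overlap is built in.

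At the threshold, the Cept1 library had 0 barcodes with 20 to 39 UMIs of Ngp, Camp and Ltf and 0 with 10 to 19, and the control library had 8 and 7. The 8 just inside had a median of 2778 UMIs, with medians of 19.5 Lcn2 and 74.5 Retnlg UMIs. The 7 just outside had a median of 2520 UMIs, with medians of 3 Lcn2 and 0 Retnlg UMIs. All 7 were fibroblast-rich, since control comparison barcodes with fewer than 20 fibroblast UMIs held at most 8 UMIs of Ngp, Camp and Ltf. The 8 just inside were a mix of fibroblast-rich barcodes and barcodes with 1 to 3 fibroblast UMIs. The difference across the threshold therefore cannot be told apart from the fibroblast split.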

How the data were processed

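The 2 libraries of mouse aorta were used, 1 per group, each as a matrix of UMI counts per gene and barcode. The deposited counts are raw, and per the file headers they were made by the authors with Cell Ranger 7.2.0. Beside that tool, Seurat and the mm10 build are listed in the submitters' processing notes, with no annotation, intron or strand setting. Library totals were 95735360 UMIs in the Cept1 library and 88220524 UMIs in the control library.

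From these counts, UMIs were summed over the barcodes of a group and divided by the group's total (CPM). Exact Poisson intervals were given to CPM, and log2 ratios took Clopper-Pearson intervals of the UMI split. Genes needed 20 UMIs over both groups to count as measured. A ratio against 0 UMIs is a bound set at 3 counts over the group. The calculation was tested on simulated data. Doublets were not removed: Scrublet (scanpy 1.11.5, expected rate 8%, score above 0.25, reached by 4.48% of Cept1 and 1.90% of control barcodes) was an alternative, as were thinning to 2000 UMIs and other filters, denominators and groups of barcodes. Numpy 2.4.6, scipy 1.17.1, pandas 2.3.3 and matplotlib 3.10.9 were used.

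Named genes were the 6 given markers, the 12 highest and 12 lowest ratios with 50 or more UMIs in the control library (leaving out choosing, mitochondrial, ribosomal protein, haemoglobin and receptor segment genes and unnamed models), all measured genes of the 3 granule lists, the 4 largest of each other list, and Cept1. Ly6c2 and Cd24a were added after their values were seen, and so were the genes followed along the score. Members and lists were chosen with earlier results of these data known. Coordinates are from GENCODE vM21 (GRCm38). Promoter windows are from RefSeq (GRCm38.p6). No ratio was taken between the rich barcodes of the libraries, since the Cept1 library held fewer than 20.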

Additional observations from a re-analysis of the deposited data

How the results depend on the processing

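The share of rich barcodes in the Cept1 library was 0.0179% when barcodes with 3 or more UMIs of other cell types were left out (2 barcodes). For the control library it was 0.160% there (14 barcodes), 0.458% without fibroblast-rich barcodes (40) and 0.527% with at least 1 Csf3r UMI (46). Genes 2-fold or more higher and lower in the control library numbered 216 and 367 without barcodes of other cell types, 772 and 980 with the 5 choosing genes out of the denominator, 829 and 923 from the median gene, and 183 and 474 after thinning. They numbered 664 higher with equal weights, and 1054 lower without fibroblast-rich barcodes.

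The share of Cept1 members with cycle UMIs was 14.3% without Hmgb2, Stmn1 and Tubb5, 14.3% over the 18 core genes and 28.6% thinned. In control members it was 95.7% at 5% mitochondrial UMIs or less, 100% without barcodes of other cell types, 21.3% without the 3 genes, 3.28% over the core and 46.6% thinned.

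List medians turned positive without barcodes of other cell types for primary granule (2.11), interferon (0.16) and protein synthesis genes (0.57), and there Cstdc5 (-1.43), Smc4 (-0.43) and Calr (1.89) changed sign too. Thinning turned Ms4a3 (0.025), Pdia6 (0.61), Calr (0.52) and Atp5g1 (0.35). Cd14 was 0.012 with the other denominator and 0.062 from the median gene. Without the primary granule barcode Prtn3 was at least 1.30 and Ms4a3 at least 1.43. Csmd1 was -0.56 without fibroblast-rich barcodes and -0.28 without its top barcodes. The cause was not tested, other than the left-out barcodes themselves. Of 1502 values of 104 named genes under alternatives, these 13 changed sign. Alternatives that leave out the primary granule, fibroblast-rich or cycling barcodes, the top barcode of a gene or members without Csf3r were chosen after seeing the data.

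No paired analysis was possible because each group is 1 library. Depth limits genes with few UMIs, and 7 barcodes limit every Cept1 value.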

Other observations

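A pair of further control barcodes held 20 or more primary granule UMIs (106 and 28 UMIs of Elane, Prtn3, Mpo and Ctsg together). Both had 0 Ngp, Camp and Ltf UMIs, with 162 and 66 core cell cycle UMIs, and their S100a8 and S100a9 UMIs were 0 and 0 in one and 83 and 1 in the other, so neither entered a group above. In the control library 2 more barcodes met every condition for rich barcodes except the C1qa maximum, and 5 met the UMI conditions but failed the filters on genes or mitochondrial share. In the Cept1 library there were 0 of each.

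Ly6c2, an antigen shared by monocytes and immature neutrophils, was looked at after its values were seen. It had UMIs in all 7 Cept1 members and in 52 of 61 control members.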
